A study of Mus musculus with 19 samples.

Results

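Sirt1, Bcl2, Mcl1, Xiap, Creb1, Atm and Dusp6 are 7 mouse genes that the literature reports as targets of the microRNA miR-181a. They were chosen by symbol, by matching the Ensembl identifiers of the count files to GENCODE M21. All 7 were found among the 48709 genes of the count files, and all 7 were among the 19297 genes that passed the filter on low counts (5 counts or more in 50% or more of the libraries) and were tested. The RNA came from the microdissected CA1 region of the hippocampus of 7-month-old mice, and there were 19 libraries in 3 groups. WT control (n = 6) were wild-type littermates given a control oligonucleotide. APP control (n = 6) were APPPS1-21 mice that received this control as well and are called transgenic controls. APP anti-miR-mix (n = 7) were APPPS1-21 mice that received inhibitors of 3 microRNAs, which are miR-181a-5p and also miR-146a-5p and miR-148a-3p, and are called treated mice. Oligonucleotides were delivered to the dorsal hippocampus in lipid nanoparticles. The titles of the wild-type libraries also name the anti-miR-mix, and the study's description of these animals as control-injected was used. APPPS1-21 mice carry human APP and presenilin 1 transgenes with disease mutations under Thy1 regulatory sequence, which is active mainly in neurons, and there was no wild-type group with the mixture.

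A microRNA guides an Argonaute protein to sites in the 3′ untranslated region (3′ UTR) of messenger RNAs that pair with its seed, the bases near its 5′ end. Binding lowers translation and often shortens the life of the message, so that the RNA of a direct target may rise where the microRNA is inhibited, while an effect on protein alone leaves no trace in RNA counts. The genes fall into several roles. Bcl2 and Mcl1 block the release of cytochrome c from mitochondria, and Xiap inhibits caspases. Sirt1 is an NAD-dependent deacetylase and Atm the kinase that responds to DNA double-strand breaks. Creb1 is the transcription factor that couples synaptic activity to gene expression and is needed for lasting memory. Dusp6 is a phosphatase that removes the activating phosphates from ERK kinases and is itself induced by ERK signalling.

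The mature miR-181 family is shown because its members share the seed, so that a site for one is a site for all. The sequences are from RefSeq (GRCm38.p6), and capitals mark the seed, bases 2 to 8.
miR-181a-5p: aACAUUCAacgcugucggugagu
miR-181b-5p: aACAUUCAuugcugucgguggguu
miR-181c-5p: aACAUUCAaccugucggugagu
miR-181d-5p: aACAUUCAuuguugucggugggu
The study's oligonucleotides follow, and capitals in the inhibitor mark the bases that pair with the seed.
inhibitor of miR-181a-5p: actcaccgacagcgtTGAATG
negative control: taacacgtctatacgccca
The inhibitor is the complement of miR-181a-5p from position 3 to position 23, and its longest unbroken pairing is 21 bases with miR-181a, 10 with miR-181b, 12 with miR-181c and 8 with miR-181d. The negative control pairs with no more than 4 consecutive bases of any of them. Mature microRNAs are not captured in libraries of polyadenylated RNA, and their levels were not analysed here.

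Each of the 7 genes held at least 1 site for the miR-181 seed in its longest annotated 3′ UTR. Sites were searched as TGAATGTA (8mer), TGAATGT (7mer-m8) and GAATGTA (7mer-A1) on the transcribed strand, and a 7mer inside an 8mer was not counted again. The best site of each gene, the longest match and then the nearest to the stop codon, is printed below on the transcribed strand in GRCm38 (mm10) coordinates, with the match in capitals, to show how the genes differ in the strength of the site.
Bcl2, chr1:106539824-106539847, minus strand: taatcaggacTGAATGTAgataat
Mcl1, chr3:95662522-95662544, plus strand: aaatgactaaGAATGTAataggg
Xiap, chrX:42105010-42105032, plus strand: ttgctctaatTGAATGTgtgatg
Sirt1, chr10:63320556-63320578, minus strand: tgtcaaaaaaTGAATGTttactt
Atm, chr9:53439243-53439266, minus strand: ctcattagaaTGAATGTAggtagg
Creb1, chr1:64601731-64601754, plus strand: tactgattagTGAATGTAgtttta
Dusp6, chr10:99267433-99267455, plus strand: tttattataaGAATGTAaaacct
Bcl2, Atm and Creb1 thus held an 8mer, Xiap and Sirt1 a 7mer-m8, and Mcl1 and Dusp6 only the weaker 7mer-A1.

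In all, Bcl2 held 3 miR-181 sites, Xiap and Creb1 2 each, and the other 4 genes 1 each. Xiap also carried 2 sites for the miR-146a seed (AGTTCTC or GTTCTCA), Creb1 2 and Bcl2 1, while Creb1 and Bcl2 each carried 1 for miR-148a (TGCACTG or GCACTGA). A miR-181 site was present in 20.9% of the 20804 genes with an annotated 3′ UTR and in 23.0% of the tested ones, and that share rises with length. Among 3′ UTRs between 0.8 and 1.2 times as long it was 9.72% for Atm (597 bases), 20.5% for Dusp6 (1190 bases), 27.0% for Sirt1 (1631 bases), 33.5% for Mcl1 (2353 bases), 54.9% for Xiap (4672 bases), 58.5% for Bcl2 (5086 bases) and 77.7% for Creb1 (7170 bases). A site was therefore common for a 3′ UTR as long as those of Creb1 or Bcl2 and uncommon for one as short as that of Atm. Not every transcript holds these sites. The Creb1 8mer lies in 1 of 6 annotated basic transcripts, the Bcl2 and Atm 8mers in 1 of 2, and the Xiap and Sirt1 sites in all 4 of each gene, and the gene counts do not separate these transcripts. The list of predicted miR-181a-5p targets that the study supplies holds 6 of the 7 genes, with Atm absent from it. The match of letters is a description and not a measure of binding.

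**Figure D1:**
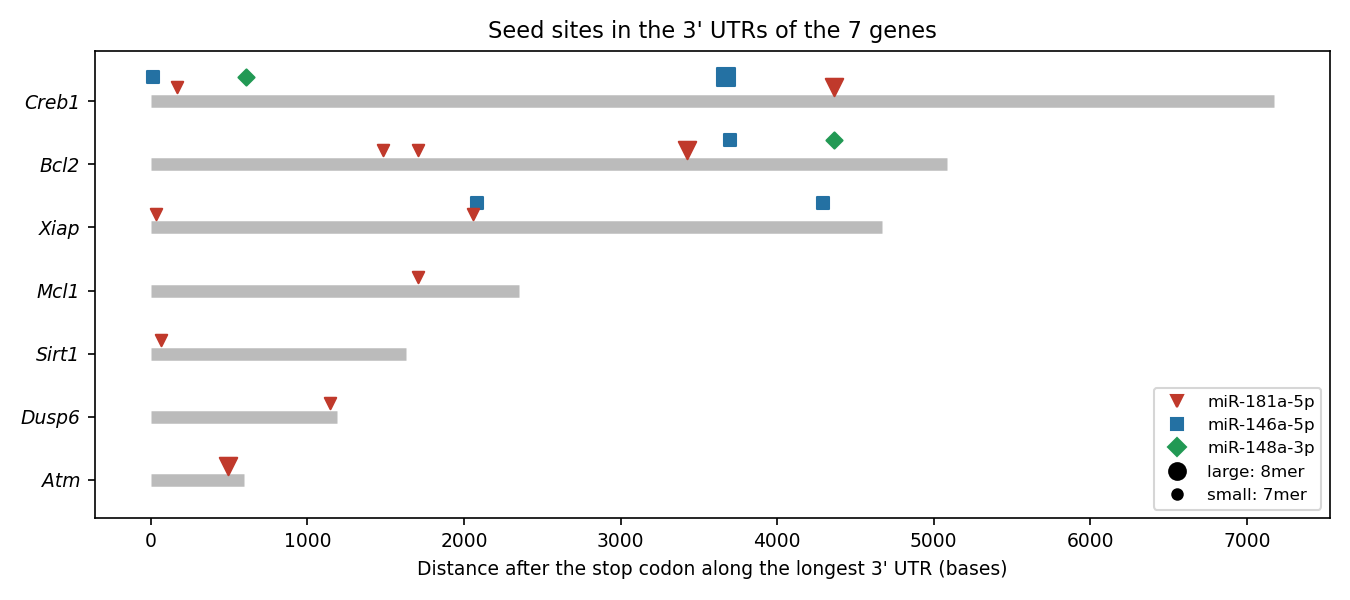
Seed sites along the longest 3′ UTR of each gene, with the distance after the stop codon in bases on the x axis, grey bars for the 3′ UTRs, red triangles for miR-181a-5p, blue squares for miR-146a-5p and green diamonds for miR-148a-3p. Large symbols are 8mers. The site of Dusp6 lies 1144 bases after the stop codon and 40 bases before the end of the 3′ UTR, and that of Sirt1 68 bases after the stop codon.

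Total counts ranged from 19362343 to 37018917 per library, and the 7 genes had between 251 (Sirt1) and 3966 (Xiap) raw reads in a library. Thy1 was 19759 ± 966 normalized counts (SD) in the 6 wild-type libraries, 52110 ± 9953 in the 6 transgenic controls and 49769 ± 4207 in the 7 treated transgenic libraries, with no overlap between wild-type and transgenic libraries and the direction that the labels state. App was 51388 ± 1952, 72645 ± 5078 and 70551 ± 3322 in the same order, likewise without overlap. Defining markers of neurons were all detected. The summed level of 5 choroid plexus markers, in length-scaled transcript units (TPM), was 185 in 1 WT control library (replicate 5) and 139 in 1 APP anti-miR-mix library (replicate 6) against a median of 16.7 in WT control, and the fold changes of the 7 genes and the number of genes called in each list were also computed without each library in turn.

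On the TPM scale, which divides by merged exon length and allows comparison between genes, the 2 genes with the highest levels were Mcl1 at 99.6 ± 9.67 (SD, n = 19) and Dusp6 at 78.6 ± 17.0. Xiap followed at 40.1 ± 7.22, then Creb1 at 15.98 ± 2.46, Sirt1 at 12.5 ± 2.503, Atm at 12.01 ± 0.896 and Bcl2 at 8.17 ± 1.05. Most neighbours in this order were separated in every library. Sirt1 was above Atm in only 10 of 19 libraries, Mcl1 was above Dusp6 in 16 of 19, and each other neighbour in the order was separated in all 19.

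The values that follow are DESeq2 normalized counts, which correct for library size and are compared only within a gene. They are given as the lowest, median and highest library of WT control, then of APP control, then of APP anti-miR-mix. Dusp6 was 1435, 2272 and 2454 in the wild-type mice, 1481, 1683 and 1917 in the transgenic controls, and 1108, 1500 and 1934 in the treated transgenic mice. In WT control, 4 of 6 libraries lay above every transgenic library and the other two (replicates 2 and 3, at 1694 and 1435) lay inside the transgenic range, so the groups overlapped. All 7 APP anti-miR-mix libraries were below the WT control median.

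Bcl2 was 422, 482 and 582 in wild-type mice, 456, 519 and 610 in transgenic controls, and 424, 572 and 682 in treated mice. Mcl1 was 2034, 2235 and 2597 in wild-type mice, 2233, 2476 and 2831 in transgenic controls, and 1857, 2420 and 2786 in treated mice. For both survival genes the groups overlapped, with the highest library of all 1.62-fold above the lowest for Bcl2 and 1.52-fold for Mcl1.

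Xiap was 2253, 2501 and 3388 in wild-type mice, 1848, 2634 and 3612 in transgenic controls, and 2099, 2997 and 3215 in treated mice. Sirt1 was 379, 438 and 632 in wild-type mice, 307, 482 and 622 in transgenic controls, and 353, 534 and 632 in treated mice. The ranges of both genes overlapped between groups, and the spread within each group was wide. The highest library exceeded the lowest 1.95-fold for Xiap and 2.06-fold for Sirt1.

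Creb1 was 1281, 1449 and 1890 in wild-type mice, 1138, 1578 and 2059 in transgenic controls, and 1208, 1649 and 1842 in treated mice. Atm was 824, 947 and 962 in wild-type mice, 748, 880 and 1009 in transgenic controls, and 778, 841 and 892 in treated mice. Creb1 overlapped throughout, and all 7 APP anti-miR-mix libraries were below the WT control median for Atm. Atm was also the least variable of the 7 genes, with a highest library 1.35-fold above the lowest and Dusp6 the most variable, at 2.21-fold. Creb1 reached 1.81-fold.

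**Figure D2:**
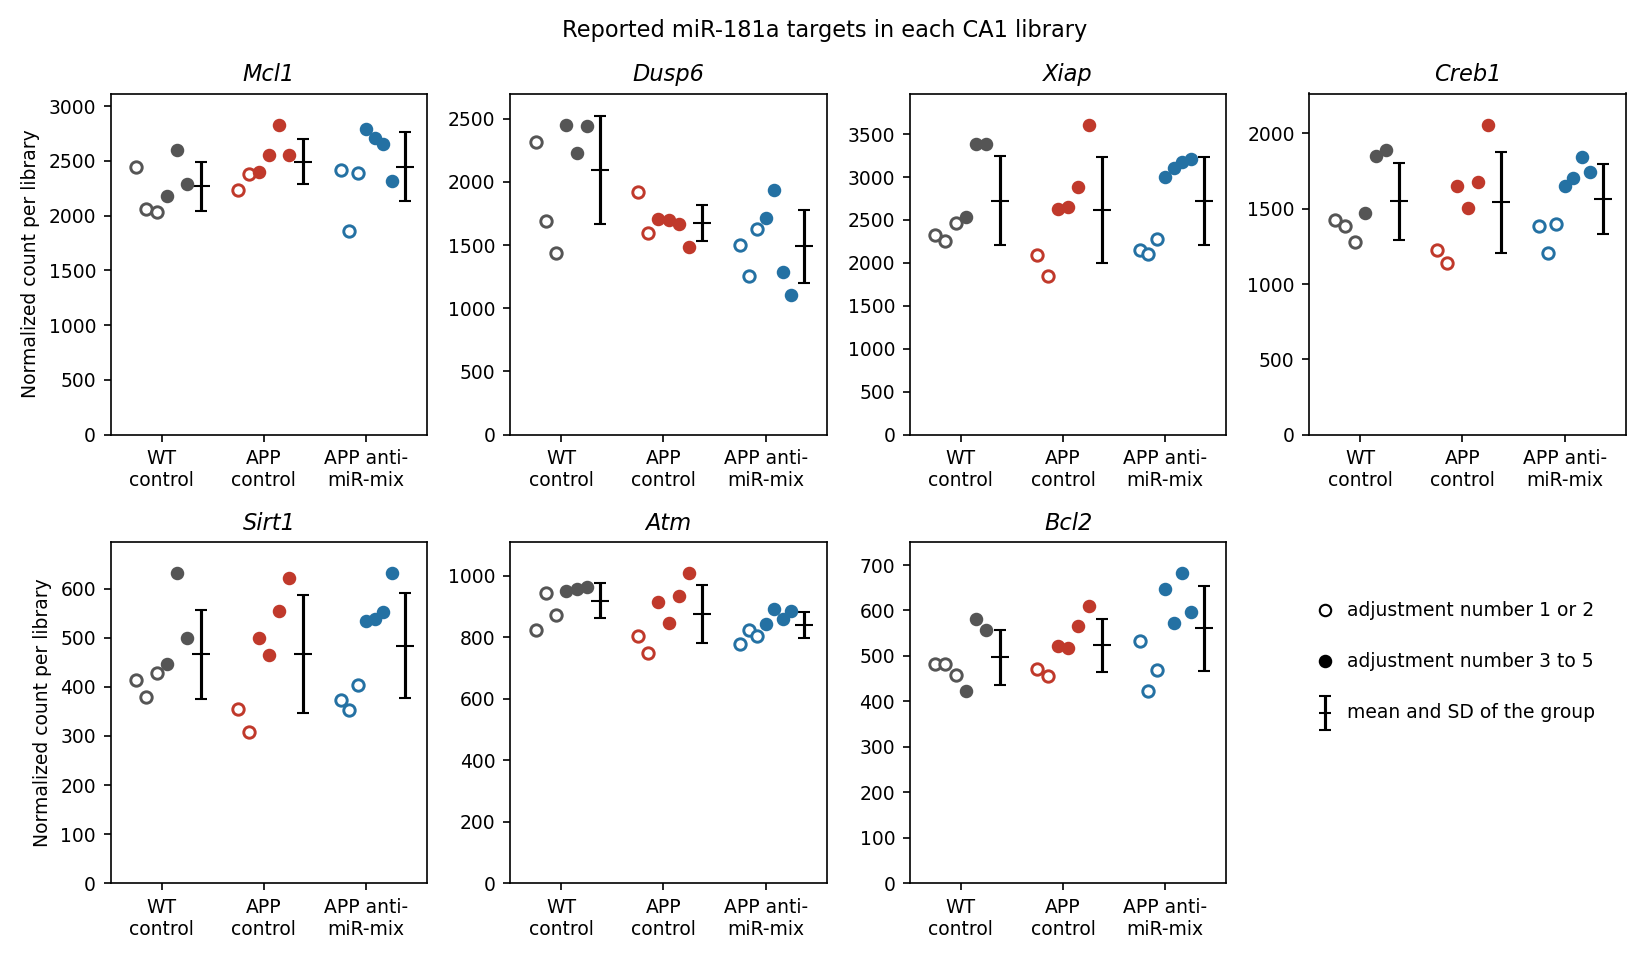
Normalized counts of each gene, 1 point per library, in WT control (grey), APP control (red) and APP anti-miR-mix (blue), with the mean and SD of each group beside the points and y axes that start at 0. Open circles are libraries with an adjustment number of 1 or 2 and filled circles those with 3 to 5, a number defined in the text. Dusp6 is lower in the transgenic groups than in 4 of the 6 WT control libraries, and the open and filled circles of Xiap, Sirt1, Creb1 and Atm separate within every group.

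The comparison of APP control with WT control asks how the transgenes changed these genes. None of the 7 genes passed the threshold (DESeq2 Wald test, Benjamini-Hochberg adjusted p under 0.05 over all genes tested), where 4.71% of all tested genes did (908 of 19297). With edgeR's quasi-likelihood test 0 of 7 passed as well, against 3.22% of all genes. At an unadjusted p under 0.05 DESeq2 gave 1 of 7, Dusp6, against 13.7% of all genes. Its log2 fold change was −0.32 (SE 0.14, 95% interval −0.60 to −0.05), with an adjusted p of 0.211 from DESeq2. All 6 APP control libraries lay below the WT control median. Leaving out WT control replicate 3 gave −0.41 and an adjusted p of 0.0392, the only one of the 19 fits without a single library in which Dusp6 passed here. The log2 fold changes of the other genes were 0.14 for Mcl1, 0.08 for Bcl2, 0.00 for Sirt1, −0.01 for Creb1, −0.06 for Xiap and −0.07 for Atm. The median over the 7 genes was −0.01, as it was over all genes tested.

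The comparison of APP anti-miR-mix with APP control asks whether the reported targets rose where miR-181a was inhibited. None of the 7 genes passed the threshold, and neither did any other gene (0% called by DESeq2 and 0 by edgeR, against 552 and 572 genes at an unadjusted p under 0.05). The 552 genes are 2.86% of those tested, and none was among the 7. The log2 fold changes were 0.10 for Bcl2 (95% interval −0.12 to 0.31), 0.05 for Xiap (−0.25 to 0.36), 0.05 for Sirt1 (−0.28 to 0.38), 0.02 for Creb1 (−0.25 to 0.28), −0.03 for Mcl1 (−0.20 to 0.14), −0.06 for Atm (−0.19 to 0.07) and −0.17 for Dusp6 (−0.44 to 0.09). The estimate was positive for 4 genes and negative for 3, and the median over the 7 was 0.02 against 0.00 over all genes tested (−0.0015 before rounding).

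As folds of APP anti-miR-mix over APP control, the upper bounds were 1.30 for Sirt1, 1.28 for Xiap, 1.24 for Bcl2, 1.22 for Creb1, 1.11 for Mcl1, 1.07 for Dusp6 and 1.05 for Atm. A rise beyond these folds lay outside the interval of each gene, and a smaller rise, or none, lay inside it. Among the 3 genes with an 8mer the estimate was positive for Bcl2 and Creb1 and negative for Atm, and all 3 intervals held 0, so their directions are not resolved. The standard errors of the 7 genes had a median of 0.13 against 0.11 over all genes tested, and those of Atm, Mcl1 and Bcl2 were below the latter.

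The comparison of APP anti-miR-mix with WT control asks how far the treated transgenic mice were from wild type. Dusp6 fell by 0.49 on the log2 scale (SE 0.13, 95% interval −0.76 to −0.23), to 0.711 of its WT control level, with a DESeq2 adjusted p of 0.0056 and an edgeR adjusted p of 0.0295. Its mean normalized count was 2095 ± 427 in wild-type mice (SD, n = 6), 1677 ± 144 in transgenic controls (n = 6) and 1490 ± 291 in treated mice (n = 7). Dusp6 was the only one of the 7 genes past the threshold, 1 of 7 where 8.95% of all tested genes passed in either direction (6.06% with edgeR) and 3.36% were lower. It passed in all 19 fits that left out a library, with adjusted p between 0.000169 and 0.0312. The transgenic libraries also had summed neuronal marker levels of 3474 to 4064 TPM against 3751 to 4344 TPM in WT control, and the part of this in the Dusp6 values was not tested. In bulk tissue, fewer cells of a type and less RNA per cell cannot be told apart. The difference of treated mice from wild type is not shown to differ from that of the transgenic controls, since the step between the transgenic groups was −0.17 with an adjusted p of 1.00.

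None of the other 6 genes passed in this comparison. The log2 fold changes against WT control were 0.17 for Bcl2 (95% interval −0.04 to 0.39), 0.11 for Mcl1 (−0.06 to 0.28), 0.05 for Sirt1 (−0.28 to 0.38), 0.01 for Creb1 (−0.25 to 0.28) and −0.0035 for Xiap (−0.31 to 0.30). Atm was at −0.13 (−0.26 to 0.0035) with a DESeq2 adjusted p of 0.267. In no gene did the values of APP anti-miR-mix and WT control separate without overlap.

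**Figure D3:**
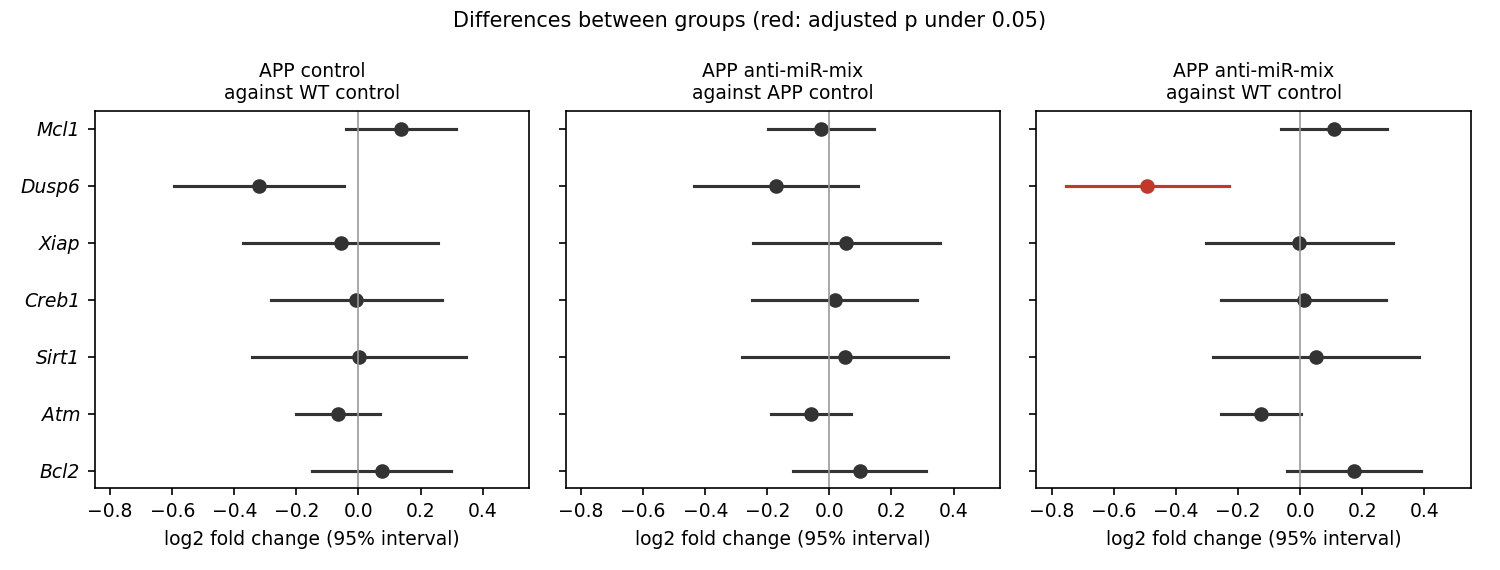
Log2 fold change of each gene (points) with its 95% interval (lines) in the 3 comparisons, on a common x axis, from the DESeq2 fit over all 19 libraries. Dusp6 at −0.49 in APP anti-miR-mix against WT control, drawn in red, is the only gene with an adjusted p under 0.05, and between the transgenic groups every interval holds 0.

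A second measurement described the genes without regard to the groups. The authors' deposited table of normalized log2 values differed from log2(CPM + 1), computed from the counts, by a whole number from 1 to 5 in each library multiplied by a slope for each gene, and this product held 99.9998% of the difference. What the number stands for is not given in the sources used here, and it is called the adjustment number. Libraries with a number of 1 or 2 (3 wild-type, 2 transgenic control and 3 treated) had a share of mitochondrial counts of 2.84% to 3.39%, and those with 3 to 5 (3, 4 and 4 libraries) had 3.76% to 4.87%. The division between 2 and 3 was chosen after the values were seen, so what follows carries no test.

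In all 3 groups, Xiap, Sirt1, Creb1 and Atm were higher in every library with an adjustment number of 3 to 5 than in every library with 1 or 2. This held for 4 of the 7 genes, where it held for 5.49% of all tested genes, and 2.25% were lower without overlap in the same way. Xiap was 2253 to 2468 against 2534 to 3388 in wild-type mice, 1848 to 2098 against 2623 to 3612 in transgenic controls, and 2099 to 2279 against 2997 to 3215 in treated mice. Sirt1 was 379 to 428 against 447 to 632, 307 to 354 against 464 to 622, and 353 to 405 against 534 to 632 in the same order. The means of these libraries thus differed more for both genes than any difference between the groups.

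Creb1 was 1281 to 1425 against 1473 to 1890 in wild-type mice, 1138 to 1226 against 1503 to 2059 in transgenic controls, and 1208 to 1401 against 1649 to 1842 in treated mice. Atm was 824 to 943 against 950 to 962, 748 to 803 against 845 to 1009, and 778 to 822 against 841 to 892. Bcl2 separated in both transgenic groups but not in wild type, and Mcl1 in the transgenic controls alone. Dusp6 overlapped in all 3 groups. The mitochondrial share moved with this division, and its part in the values was not tested.

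When the adjustment number entered the fit as a factor, the standard errors between the transgenic groups went from 0.15 to 0.07 for Xiap and from 0.17 to 0.08 for Sirt1, and still none of the 7 genes passed (0% of all tested genes). The log2 fold changes were then 0.11 for Xiap (95% interval −0.03 to 0.24), 0.11 for Sirt1 (−0.03 to 0.26), 0.07 for Creb1 (−0.06 to 0.20) and 0.13 for Bcl2 (−0.02 to 0.27). The other 3 genes were negative, at −0.0040 for Mcl1 (−0.15 to 0.14), −0.05 for Atm (−0.14 to 0.05) and −0.16 for Dusp6 (−0.36 to 0.05). Dusp6 against WT control was −0.46 (SE 0.11) with a DESeq2 adjusted p of 0.0015 in that fit, which called 8.98% of all tested genes there. In treated mice against wild type the intervals of Atm at −0.14 (−0.24 to −0.03) and Bcl2 at 0.16 (0.00078 to 0.32) then lay outside 0, but neither passed, with DESeq2 adjusted p of 0.0810 and 0.234.

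**Figure D4:**
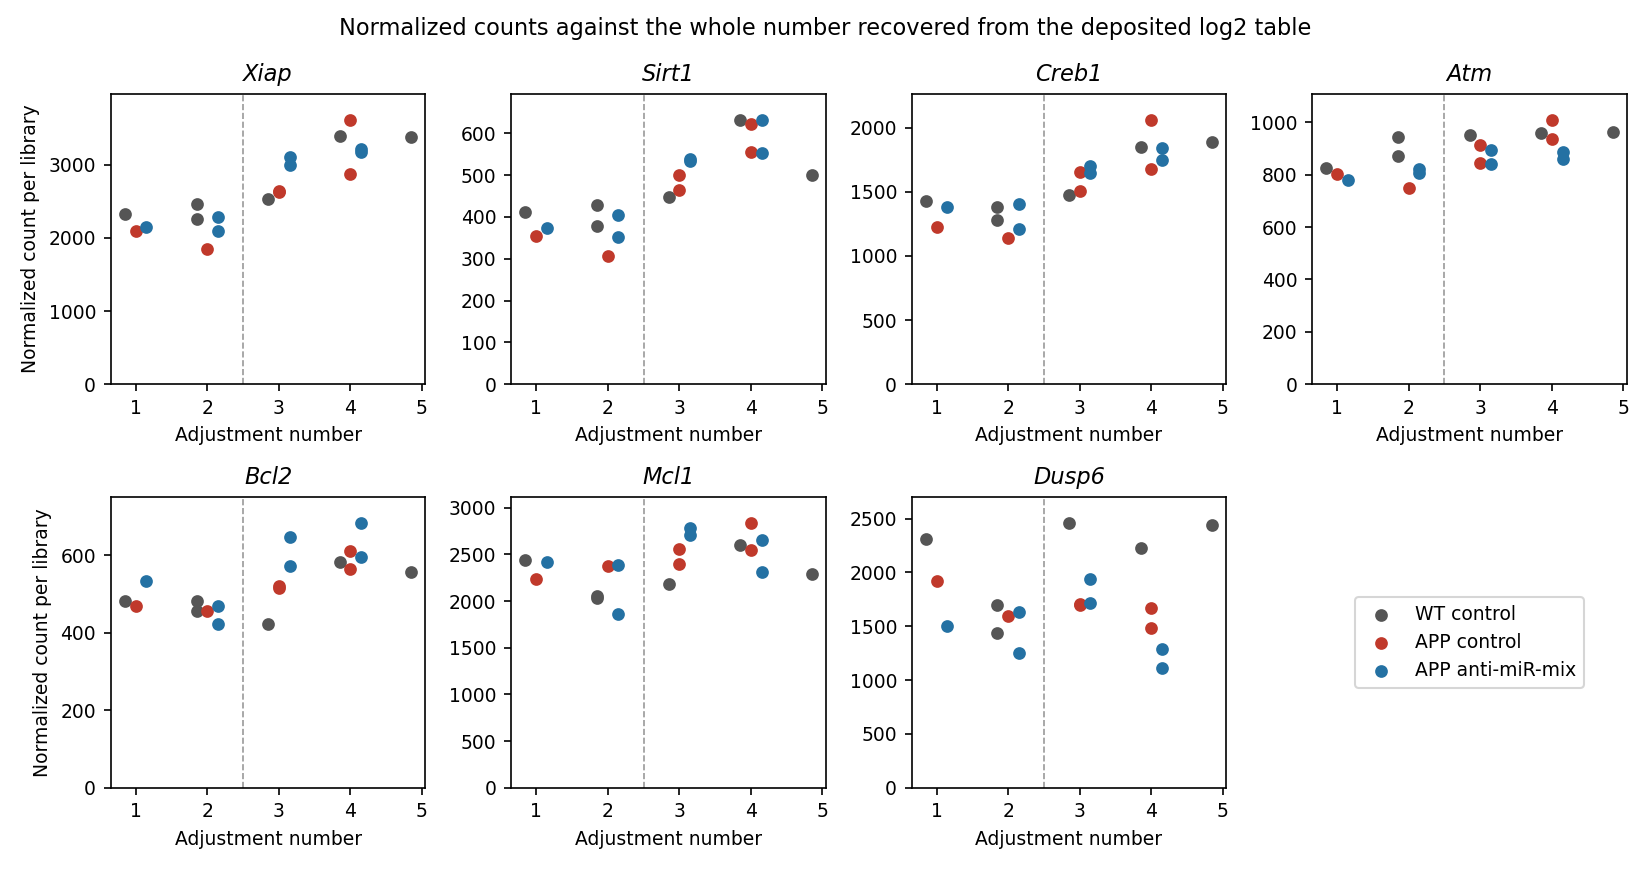
Normalized count of each gene against the adjustment number of the library (1 to 5), with groups in grey (WT control), red (APP control) and blue (APP anti-miR-mix), shifted slightly along the x axis so that points do not hide each other. The dashed line divides 2 from 3. Xiap, Sirt1, Creb1 and Atm lie higher to the right of the line in each group, and Dusp6 does not.

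The same division ran along 3′ UTR features of all genes. Of the 11829 tested genes with an annotated 3′ UTR and no miR-181 site, 4.56% were higher without overlap in the libraries with numbers 3 to 5, against 9.69% of 2621 genes with 1 site, 18.3% of 646 with 2 and 20.7% of 276 with 3 or more. Length moved with the number of sites, since the median 3′ UTR was 881, 2029, 3230 and 4366 bases in these classes, and the contribution of length was not tested. Xiap and Creb1, with long 3′ UTRs and 2 sites, belong to the higher genes, but so does Atm with 597 bases, while Bcl2, with 3 sites and 5086 bases, does not.

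Within groups, the genes other than Dusp6 varied together to different degrees. After subtraction of group means, Pearson's r of log2 normalized counts over the 19 libraries was 0.29 to 0.96 over the 15 pairs among those 6 genes (median 0.82), highest for Xiap with Creb1 and lowest for Mcl1 with Atm. The 6 pairs with Dusp6 had r between −0.03 and 0.48. All pairs share libraries and their adjustment numbers, so these are descriptions.

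The genes with the most similar pattern, among 12765 with a mean normalized count of at least 100, were Ptpn4 (r = 0.99), U2surp and Epm2aip1 for Xiap, Zfp131 (0.98), Zbtb41 and C130071C03Rik for Sirt1, and Ccdc88a (0.98), Trpm7 and Stag2 for Creb1. For Atm they were Cse1l (0.93), Pura and Prkci. For Bcl2 they were Sgk3 (0.95), Cyb5r4 and Arsk, and for Mcl1 Resf1 (0.94), Tiparp and Abca1. Dusp6 had the least close neighbours, Ubxn4 (0.89), the dopamine receptor gene Drd5 (0.88) and the mineralocorticoid receptor gene Nr3c2 (0.86).

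The partners of each gene were examined in lists by pathway. Around Dusp6, the ERK feedback list holds dual-specificity phosphatases, Sprouty and Spred inhibitors, the kinases and the ERK-induced Etv factors, 26 of them tested. Against WT control, 7 were lower and none higher in transgenic controls, and 7 were lower (Dusp6 included) and 1 higher in treated mice. Of all tested genes 1.05% and 3.36% were lower in these comparisons, and edgeR called 5 and 8 genes of the list. Dusp1, a nuclear phosphatase induced by activity, fell by 0.58 and by 0.64 on the log2 scale (DESeq2 adjusted p 1.2e-05 and 2.0e-07), from a mean of 680 normalized counts to 454 and 438. Dusp4 fell by 0.51 and 0.49 and Etv1 by 0.49 and 0.66. Etv5 fell by 0.32 and 0.30, and Spred3, an inhibitor of Ras signalling to ERK, by 0.25 and 0.27. Mapk3, which encodes ERK1, was 0.28 higher in APP anti-miR-mix than in WT control (DESeq2 adjusted p 0.0240). The higher calls of the list there were 0 without WT control replicate 1. Leaving out 1 library gave 5 to 8 lower calls in transgenic controls and 7 to 10 in treated mice. Between the transgenic groups 0 of 26 passed, the abundant Map2k1, which encodes the kinase MEK1 that activates ERK, was at −0.06, and the median of the list was −0.15, 0.02 and −0.13 in the 3 comparisons. Neuron markers were negative in 8 of 8 and 7 of 8 cases against WT control (medians −0.10 and −0.13) and microglia markers positive in 7 of 7 in both (0.89 and 0.92), and the part of either in these values was not tested.

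Around Creb1, the list of its cofactors and upstream kinases (24 tested) had 1 lower gene, Crem, in both comparisons with WT control, and 1 higher, the kinase gene Rps6ka1, in APP anti-miR-mix against WT control. These calls are 4.17% and 8.33% of the list, near the 4.71% and 8.95% of all tested genes, and Rps6ka1 had an edgeR adjusted p of 0.0750. The lower call in transgenic controls was 0 without APP control replicate 2 and 2 without APP control replicate 1, and the higher call in treated mice was 0 without WT control replicate 2. Crem, a CREB family member that is itself induced by activity, fell by 0.27 and 0.31. The edgeR adjusted p of Crem was 0.0544 in the comparison of APP control with WT control, past the threshold only with DESeq2. Between the transgenic groups the most abundant genes of the list, the kinase gene Camk2a and the adenylyl cyclase gene Adcy1, were at −0.08 and 0.11.

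Activity genes that CREB is known to regulate form another list. Of 20 tested, 13 fell in transgenic controls and 16 in treated mice against WT control, and none passed between the transgenic groups. That is 65% and 80% of the list, where 1.05% and 3.36% of all tested genes were lower, and edgeR called 10 and 14. With 1 library left out the counts were 11 to 14 and 15 to 17. Between the transgenic groups they were 0 to 1, with 1 lower gene without WT control replicate 4. Nr4a1, an orphan nuclear receptor, fell by 0.77 and 1.05, from 3721 normalized counts to 2189 and 1793. Its relative Nr4a3 fell by 0.45 and 0.55, and Scg2, which encodes secretogranin II of dense-core vesicles, by 0.38 and 0.56. Between the transgenic groups the most abundant genes of the list, Sst (somatostatin) and the neuropeptide precursor gene Vgf, were at −0.12 and −0.05. Of the 20 genes 17 were negative there, with a median of −0.07 against −0.0015 over all genes tested. Nptx2, a synaptic pentraxin gene, was lowest at −0.68, with means of 604 and 377 normalized counts, and did not pass (DESeq2 adjusted p 0.434). Against WT control, the neuron and microglia markers given for the ERK feedback list moved too (2 and 1 of the 8 neuron markers past the threshold, both times lower). Between the transgenic groups, 6 of 8 neuron markers were positive (median 0.03), as were 6 of 7 microglia markers (median 0.05). The part of either in the activity genes was likewise not tested. Creb1 itself was at −0.01 and 0.01 in the 2 comparisons with WT control, and its difference from these genes was not tested.

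Around Bcl2 and Mcl1, 16 genes of the BCL2 family were tested. Bmf and Bcl2a1b were higher in both comparisons with WT control, by 0.69 and 0.71 for Bmf, which opposes BCL2, and by 1.61 and 1.48 for Bcl2a1b, a pro-survival member of blood lineage cells. Bcl2a1b belongs to a set of near-identical copies, so its reads may be divided among them, and its means were only 7.36, 22.7 and 20.6 normalized counts. These 2 calls are 12.5% of the list against 4.71% of all tested genes. Pmaip1, which encodes NOXA, an antagonist of MCL1, was 0.71 higher in APP anti-miR-mix than in WT control (DESeq2 adjusted p 0.0176), which makes 18.8% of the list against 8.95% of all. Its means were 65.6 and 40.1 normalized counts in these groups. Leaving out 1 library gave 2 to 3 higher calls of the list in transgenic controls and 2 to 4 in treated mice. Bcl2l1 and Bax, the genes of BCL-XL and BAX, and Bcl2l2, the gene of BCL-W, did not pass in any comparison, with log2 fold changes between −0.05 and 0.10. None of the 16 passed between the transgenic groups.

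Around Xiap, 22 caspases, their activators and inhibitors were tested, and in both comparisons with WT control 4 were higher and 1 lower. That is 22.7% of the list, against 4.71% and 8.95% of all tested genes. Naip2 was 1.21 and 1.23 higher on the log2 scale, Naip5 1.14 and 1.32, Naip6 0.98 and 1.203 and Casp8 0.58 and 0.66. The Naip genes are sensors of bacterial flagellin and secretion proteins and are close paralogs, so their reads may be shared among copies. Birc6, a giant inhibitor of apoptosis, fell by 0.18 and 0.19, with an edgeR adjusted p of 0.0567 in the first comparison, where it did not pass without WT control replicate 2, and was at −0.0072 between the transgenic groups. The summed level of 7 microglia markers was 671 to 1108 TPM in wild-type mice, 1055 to 2212 in transgenic controls and 1352 to 2168 in treated mice, and its part in the values of Naip genes, Casp8 and Bcl2a1b was not tested.

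Around Sirt1, 19 sirtuins and genes of NAD metabolism were tested. Naprt, which makes NAD from nicotinic acid, was 0.50 and 0.47 higher in the transgenic control and treated groups than in wild type, and Sirt5, a mitochondrial sirtuin, fell by 0.23 in APP anti-miR-mix against WT control (DESeq2 adjusted p 0.0139, edgeR adjusted p 0.0593). These calls are 5.26% and 10.5% of the list, near the 4.71% and 8.95% of all tested genes. Leaving out 1 library could end 2 of them, since the higher call in transgenic controls was 0 without APP control replicate 2 and the lower call in treated mice 0 without WT control replicate 6. Sirt2 and the NAD synthesis gene Nmnat2, the most abundant of the list, were at 0.02 and 0.10 between the transgenic groups.

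Around Atm, 25 genes of the DNA damage response were tested. Chek2, the kinase that ATM activates, was 0.67 and 0.59 higher against WT control at means of 28.5, 45.8 and 43.2 normalized counts, with edgeR adjusted p of 0.0553 and 0.0595, and Prkdc, the catalytic subunit gene of DNA-PK, fell by 0.19 in APP anti-miR-mix against WT control (DESeq2 adjusted p 0.0376, edgeR adjusted p 0.0800). The calls are 4% and 8% of the list, below the 4.71% and 8.95% of all tested genes, and edgeR called none. Each of these calls was lost without some library, such as WT control replicate 2 for the higher call in transgenic controls and the lower call in treated mice, and WT control replicate 3 for the higher call in treated mice, and each count reached 2 without another. Trp53bp1 and Mdm4, the most abundant, were at 0.01 and −0.01 between the transgenic groups. Trp53 and Atr were between −0.02 and 0.05 in all 3 comparisons. In neither list did a gene pass between the transgenic groups.

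**Figure D5:**
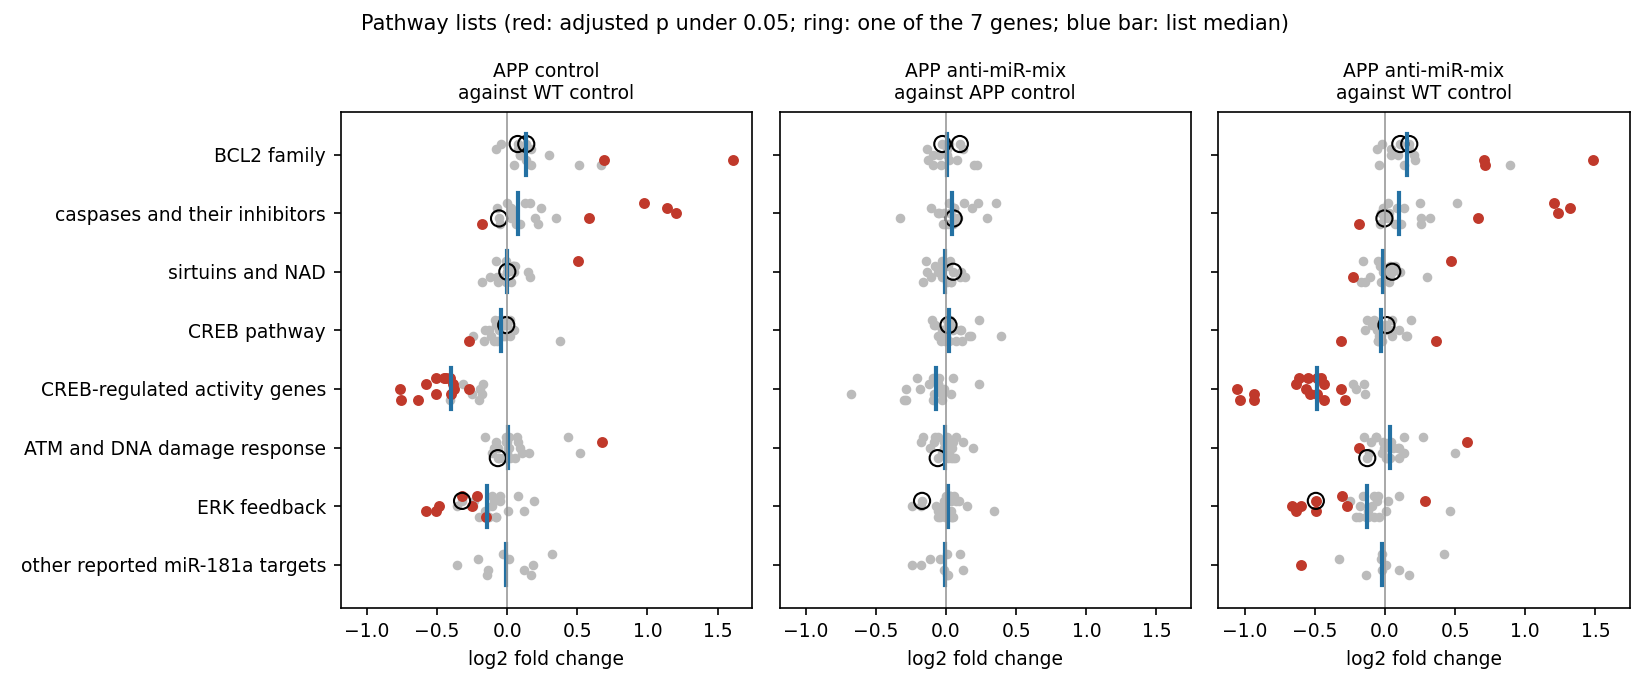
Log2 fold changes of the genes in 8 lists, by comparison, on a common x axis, with 1 point per gene, red where the adjusted p is under 0.05, a ring around the 7 genes where they are list members and a blue bar at the list median. The CREB-regulated activity genes lie left of 0 in both comparisons with WT control (medians −0.40 and −0.49), and no point is red between the transgenic groups.

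A list of other genes reported as miR-181a targets was examined in the same way. Of 10 tested, none passed in APP control against WT control or between the transgenic groups, and 1, the ERK phosphatase gene Dusp5, was lower in APP anti-miR-mix than in WT control, by 0.60 (DESeq2 adjusted p 9.7e-05). That is 10% of the list against 8.95% of all tested genes. Leaving out 1 library gave 1 to 2 lower calls there and 0 to 1 in APP control against WT control. In the fit that held the adjustment number as a factor, 2 of the 10 passed in transgenic controls against wild type, where 4.53% of all tested genes did. That fit also passed 2 in treated mice against wild type, where 8.98% of all tested genes passed. In the fit without the number, Gria2, which encodes an AMPA receptor subunit, was at −0.21, −0.12 and −0.32 in the 3 comparisons and did not pass. Neither did Ptpn11 there, the gene of the phosphatase SHP2, at 0.02, −0.04 and −0.03.

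On a wider scale, 1034 genes of the study's predicted miR-181a-5p targets were tested. None passed between the transgenic groups, and the median log2 fold change was 0.00089 against −0.0015 over all genes tested, with 522 positive and 512 negative. The smallest unadjusted p among them belonged to Nr6a1 (0.26, higher), Kcnh1 (−0.23) and Etv6 (0.21), each with a DESeq2 adjusted p of 1.00. In APP control against WT control, 27 were higher and 28 lower, 5.32% of the list against 4.71% of all tested genes, led by Mamdc2 (1.55), Runx1 (1.12), Prkcd (0.62), Abcc3 (0.71) and Lox (1.81). Over all tested genes the directions were less even, with 3.66% higher and 1.05% lower. Of the 1034 genes, 284 were positive and 750 negative, with a median of −0.06 against −0.01 over all genes tested. The predicted targets of miR-148a-3p (186 positive, 423 negative, median −0.05) and miR-146a-5p (88 positive, 174 negative, median −0.04) lay in the same direction. edgeR called 27 of the 1034 miR-181a-5p targets, a share below the 3.22% of all tested genes that it called. Higher DESeq2 calls of this list ranged from 16 without APP control replicate 3 to 35 without WT control replicate 1. Its lower calls ranged from 15 without APP control replicate 2 to 57 without APP control replicate 6. In treated mice against WT control 39 were higher and 76 lower, 11.1% against 8.95% of all tested genes. Over all tested genes 5.59% were higher and 3.36% lower there. With edgeR, 72 of the list were called, where it called 6.06% of all tested genes. Lower DESeq2 calls of the list ranged from 43 without WT control replicate 6 to 99 without WT control replicate 1. By the number of miR-181 sites in the 3′ UTR, the median log2 fold change between the transgenic groups was −0.0035 with no site, 0.0028 with 1, −0.0029 with 2 and 0.01 with 3 or more, and none of these genes passed. In the same order the medians were −0.0055, −0.03, −0.05 and −0.06 in transgenic controls against wild type and −0.01, −0.03, −0.04 and −0.04 in treated mice against wild type. The length of the 3′ UTR moved with these classes, and its part was not tested.

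The miR-181 genes gave few reads in these libraries. The precursor Mir181a-1 (chromosome 1) had 2 reads in all and Mir181a-2 (chromosome 2) also 2. Gm4258, a noncoding transcript that spans Mir181a-1 and Mir181b-1, had 9.31, 9.80 and 12.3 mean normalized counts in the wild-type, transgenic control and treated groups, and its log2 fold change between the transgenic groups was 0.33 (SE 0.35). A430106G13Rik, a lincRNA that spans Mir181b-1, had 29.7, 28.6 and 34.7, with 0.28 (SE 0.25). Nanos3, a protein-coding gene that spans Mir181c and Mir181d on chromosome 8, had 17.0, 15.9 and 14.0, with −0.19 (SE 0.28). None of these passed the threshold. Levels of these transcripts do not measure the mature microRNA.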

How the data were processed

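RNA from 19 CA1 samples was read from one end, with 50 nt per read according to the labels. The authors aligned the reads to mm10 with STAR (2.5.2b) and deposited raw counts per Ensembl gene, made with featureCounts of Subread (1.5.1), and a normalized table on the log2 scale with 18825 genes. The annotation release and strand setting of the counting are not given in the sources used here. Bcl2 and Sirt1 overlap antisense genes with 3 and 14 reads in all 19 libraries. The deposited log2 values served only for the adjustment number and 1 alternative.

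Counts were tested with DESeq2 (1.42.0) in a single fit of all groups, with the filter and threshold of the study's methods, unshrunken log2 fold changes and intervals of ± 1.96 SE, which include the spread between libraries. The script was tested on simulated data. edgeR (4.0.16), limma (3.58.1) and the other alternatives are reported in the closing section. Symbols and 3′ UTRs came from GENCODE M21 (GRCm38), which matched 48349 of 48709 identifiers, and TPM used merged exon lengths. All columns of per-sample values were mapped to a sample. Total counts of 19362343 to 37018917 per library set the counting precision. Chi-square per gene was 4.60 for the most alike libraries of a group, so none was merged. Nothing in the labels says whether libraries came from separate animals, so p-values measure the spread between these samples.

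The 7 genes, the lists and the tests were chosen with earlier results of these data known. Genes named from a list were the up to 4 past the threshold with the smallest adjusted p in a comparison, or the 2 most abundant where none passed. From the predicted targets they were the 5 with the smallest adjusted p in APP control against WT control and the 3 with the smallest unadjusted p between the transgenic groups. Some of these genes are given in other comparisons too, and 1 of them is not reported here. Bax, Trp53, Atr, Mapk3 and Nptx2 were named after their values were seen.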

Additional observations from a re-analysis of the deposited data

How the results depend on the processing

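Members past the threshold numbered 0, 0 and 1 in transgenic controls against WT control, between the transgenic groups, and in treated mice against WT control, under all 9 alternatives of tool, size factors, filter, samples, replicate block, adjustment number and table. Dusp6 in treated mice against WT control ranged from −0.49 to −0.43, with adjusted p between 0.0015 and 0.0321. Of 189 log2 fold changes under these alternatives, 174 kept their direction and side of the threshold. The other 15 changed sign, and none of these passed the threshold. In APP control against WT control, Sirt1 was −0.00045 in the 2-group fit, −0.012 with the replicate block, −0.019 with the adjustment number as a linear term and −0.14 where it was a factor, and Creb1 was 0.013 with limma. Between the transgenic groups, the replicate block gave −0.014 for Sirt1 and −0.0020 for Creb1. In treated mice against WT control, Xiap was 0.0073 with edgeR, 0.0015 with TMM size factors, 0.0017 with at least 10 counts in every library, 0.019 with the linear term and 0.051 with limma. There Sirt1 was −0.027 with the replicate block and −0.026 with the factor, and Creb1 −0.018 with the replicate block. The cause was not tested.

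All genes called between the transgenic groups numbered 3 in the 2-group fit and 1 with the replicate block, against 0. Against WT control they numbered 621 to 1329 for transgenic controls and 1169 to 2371 for treated mice over the 9 alternatives, against 908 and 1727. With edgeR, lower calls against WT control went from 202 to 84 for transgenic controls and from 649 to 288 for treated mice, and higher calls from 706 to 537 and from 1078 to 881. Leaving out 1 library gave 0 to 1 members in APP control against WT control, 0 to 0 between the transgenic groups and 1 to 1 in treated mice against WT control, and 666 to 1209, 0 to 3 and 1169 to 2012 genes. The member gained was Dusp6 without WT control replicate 3. In APP control against WT control, leaving out 1 library gave −0.098 to 0.11 for Sirt1, −0.17 to 0.025 for Xiap and −0.11 to 0.068 for Creb1. Between the transgenic groups it gave −0.028 to 0.17 for Xiap, −0.044 to 0.15 for Sirt1, −0.056 to 0.12 for Creb1 and −0.060 to 0.030 for Mcl1. In treated mice against WT control it gave −0.052 to 0.069 for Xiap, −0.023 to 0.16 for Sirt1 and −0.037 to 0.076 for Creb1.

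By the rule used, replicate numbers did not pair the samples, since the correlation of same-numbered deviations exceeded 0.1 in 3, 4 and 3 of 6 pairs and a sample matched its own number best in 0, 2 and 2 of 6. Libraries with the same replicate number nonetheless had adjustment numbers that differed by at most 1, and the block took the standard error between the transgenic groups from 0.15 to 0.07 for Xiap and from 0.17 to 0.09 for Sirt1. With the replicate block, Dusp6 was −0.43 in treated mice against wild type (DESeq2 adjusted p 0.0037), and the number of members past the threshold did not change. For the genes that did not pass, the intervals give the changes that these libraries leave possible.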
